A study of Homo sapiens with 3 samples.

Results

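The genes described here encode molecular chaperones, the heat shock protein families HSP70, HSP110, HSP90 and small heat shock proteins, the J-domain proteins of the DNAJA, DNAJB and DNAJC families, and the chaperonins. They were taken by symbol, as every line whose symbol starts with HSPA, HSPB, HSPD, HSPE, HSPH, HSP90, DNAJA, DNAJB or DNAJC, plus TCP1, CCT2, CCT3, CCT4, CCT5, CCT6A, CCT7 and CCT8. The deposited file has 19076 lines, and 87 of them matched. Leaving out 5 pseudogenes gave 82 lines, of which 5 are antisense or read-through transcripts and 77 are genes of the families named. Levels are in RPKM, reads per kilobase of gene scaled to a common depth. Of the 77 genes 67 averaged 1 RPKM or more, and differences and counts below cover these. A few members are chaperones by symbol more than by role, such as HSPB11, whose product is a subunit of the intraflagellar transport machinery.

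The RNA came from MDA-MB-231, a human cell line grown from a breast tumour and of basal-like character. All cells carried a short hairpin RNA against KAP1 (gene TRIM28), which silences chromatin where KRAB zinc finger proteins recruit it, and re-expressed KAP1 as wild type (wt), as S473A, whose alanine cannot be phosphorylated, or as S473D, whose aspartate imitates a phosphorylated serine. Each form gave 1 library, and no library with unaltered or only depleted KAP1 was analysed here. The mesenchymal markers of this line were high (VIM between 673 and 740 RPKM), and the luminal receptor genes ESR1 and PGR and the epithelial gene CDH1 were at 0.240 RPKM or less in every library. The labels do not say whether each culture was a single clone or how the re-expressed gene was driven.

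Because every group is a single library, the spread between replicates is unknown and p-values are absent: what follows sets library against library. A difference is one of log2(RPKM + 1) values, a scale that makes differences of weakly expressed genes look smaller. Ratios of RPKM come with exact 95% intervals computed from estimated read numbers, and these hold counting error alone. In such bulk RNA fewer cells expressing a gene and less RNA per cell cannot be told apart. The depth, estimated from the steps between low values, lay between 23900000 and 29400000 counted reads. TRIM28 stood at 28.7 (wt), 32.3 (S473A) and 25.6 RPKM (S473D), and the values do not separate the endogenous from the re-expressed transcript. The median difference over all 11579 genes was 0.00 for S473A minus wt and -0.10 for S473D minus wt. A chaperone gene at 0 in the second comparison thus stood above the median difference of all genes.

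Chaperones bind unfolded or partly folded proteins and keep them from aggregating. HSP70 proteins do so in cycles of ATP hydrolysis, which J-domain proteins start and nucleotide exchange factors such as HSP110 end, while HSP90 takes over late folding steps of kinases, steroid receptors and other clients. Chaperonins are barrels that enclose a single chain. The cytosolic one, CCT, folds actin and tubulin, and the mitochondrial one is built from HSPD1 and its lid HSPE1. Heat shock factor 1 turns on many cytosolic members under protein stress by binding inverted repeats of GAA, and the unfolded protein response turns on the members of the endoplasmic reticulum, in part through a CCAAT box spaced from CCACG.

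The promoters of 6 members are shown because they carry, or adjoin, those 2 motifs and because the genes behind them differed in how they stood in S473D. Each run is the 250 bases before a RefSeq transcript start in build GRCh38.p14, written in the direction of transcription. Capitals mark a heat shock element of 3 units, GAANNTTCNNGAA or TTCNNGAANNTTC, in the first 4 and an endoplasmic reticulum stress element, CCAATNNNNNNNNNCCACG or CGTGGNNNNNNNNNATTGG, in the last 2. The pairs of patterns are each other's reverse complement, so both strands were searched, and overlapping matches run together in the print. HSPA8 lies at chr11:123062137-123062386 (minus strand), HSP90AA1 at chr14:102087045-102087294 (minus) and HSPD1 at chr2:197499841-197500090 (minus). HSPE1 lies at chr2:197500129-197500378 (plus), HSPA5 at chr9:125241344-125241593 (minus) and HSP90B1 at chr12:103930160-103930409 (plus).
HSPA8: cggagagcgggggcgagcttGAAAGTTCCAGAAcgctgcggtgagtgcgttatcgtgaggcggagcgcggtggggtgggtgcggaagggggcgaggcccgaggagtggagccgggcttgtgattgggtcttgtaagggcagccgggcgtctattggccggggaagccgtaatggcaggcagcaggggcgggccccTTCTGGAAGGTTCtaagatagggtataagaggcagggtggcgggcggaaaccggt
HSP90AA1: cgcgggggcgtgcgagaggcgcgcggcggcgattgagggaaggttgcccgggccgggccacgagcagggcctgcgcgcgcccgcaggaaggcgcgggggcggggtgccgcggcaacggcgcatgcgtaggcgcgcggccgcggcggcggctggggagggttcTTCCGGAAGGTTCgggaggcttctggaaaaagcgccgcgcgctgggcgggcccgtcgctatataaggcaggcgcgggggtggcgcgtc
HSPD1: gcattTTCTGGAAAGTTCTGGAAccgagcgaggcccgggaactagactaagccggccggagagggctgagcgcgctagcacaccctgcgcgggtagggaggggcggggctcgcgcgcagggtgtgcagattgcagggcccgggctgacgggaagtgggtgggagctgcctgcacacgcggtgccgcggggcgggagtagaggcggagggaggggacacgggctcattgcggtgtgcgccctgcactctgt
HSPE1: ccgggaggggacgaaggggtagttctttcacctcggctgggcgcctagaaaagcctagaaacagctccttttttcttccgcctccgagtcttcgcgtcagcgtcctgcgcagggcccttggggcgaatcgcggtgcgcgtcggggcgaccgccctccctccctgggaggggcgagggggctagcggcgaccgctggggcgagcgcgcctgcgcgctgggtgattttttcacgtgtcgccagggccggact
HSPA5: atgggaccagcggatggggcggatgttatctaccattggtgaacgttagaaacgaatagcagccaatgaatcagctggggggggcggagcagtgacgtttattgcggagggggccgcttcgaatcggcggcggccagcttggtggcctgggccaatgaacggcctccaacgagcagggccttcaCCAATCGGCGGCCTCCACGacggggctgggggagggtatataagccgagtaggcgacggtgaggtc
HSP90B1: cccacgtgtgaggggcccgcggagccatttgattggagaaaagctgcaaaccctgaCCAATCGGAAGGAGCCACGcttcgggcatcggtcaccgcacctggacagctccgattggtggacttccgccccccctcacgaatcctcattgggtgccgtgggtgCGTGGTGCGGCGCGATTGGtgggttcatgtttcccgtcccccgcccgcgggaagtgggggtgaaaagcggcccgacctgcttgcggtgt

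The heat shock element was found in the windows (250 bases before to 50 after a start) of 7 of the 70 members with a RefSeq promoter, and in 0.608% of all 27305 genes with one. The 7 were DNAJA1, DNAJB6, HSP90AA1, HSP90AB1, HSPA6, HSPA8 and HSPD1. HSPA8 has 2 matches, and in HSPD1 the 2 matches overlap. The stress element was found in HSPA5 and HSP90B1, 2 of 70 members against 0.0916% of all genes. HSPD1 and HSPE1 are transcribed away from each other from chromosome 2, with 539 bases between the HSPE1 start and the HSPD1 start shown, and 105 bases to a further HSPD1 start. The heat shock element of HSPD1 lies between the start shown and that of HSPE1, outside the HSPE1 window, which holds none. A match is a description of the letters in the window. The 7 genes with a heat shock element spanned -0.26 (DNAJB6) to 0.46 (HSPA8) in S473D minus wt, with a median of 0.09. Of them 5 were above 0 and 2 below, where 39.3% of all genes were above. HSPD1, at 0.01, stood at -0.05 once a smooth trend on transcript length was removed. The 2 with a stress element stood at -0.45 (HSPA5) and 0.00 (HSP90B1).

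On the log2(RPKM + 1) scale 0 of the 67 chaperone genes were 2-fold apart between S473D and wt, while 5 were at least 1.5-fold higher in S473D and 2 at least 1.5-fold lower. Over all genes 1.09% were at least 2-fold apart and 10.1% at least 1.5-fold, 6.82% higher and 3.23% lower, so the members' share of 10.4% (7 of 67) is near the background. The 5 higher were HSPB1, HSPB11, CCT2, HSPE1 and CCT6A, and the 2 lower were HSPB8 and DNAJC11. By the plain ratio of RPKM HSPB1 was past 2-fold (2.45), and DNAJC17 (1.55), HSPBAP1 (1.59) and HSPA12A (1.76, higher in wt) also passed 1.5-fold. Centring all differences on their median turned the 5 higher and 2 lower to 9 higher and 0 lower. That step adds the same amount to every gene. Over all genes it took those 2-fold higher from 115 to 197 and those 2-fold lower from 11 to 8. The share of all genes at 1.5-fold after centring was not counted. The members' median difference was 0.01, against -0.10 for all genes. Of the 67 genes 36 stood above 0 where 39.3% of all genes did, and 44 stood above the median of all genes. The members' differences ran from -0.63 to 0.91 with an SD of 0.36, near the SD of 0.37 over all genes. In S473A minus wt the members ran from -0.17 to 0.39 with an SD of 0.09, and 0 of 67 were 2-fold or 1.5-fold apart, where 0.0173% and 0.242% of all genes were.

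**Figure D1:**
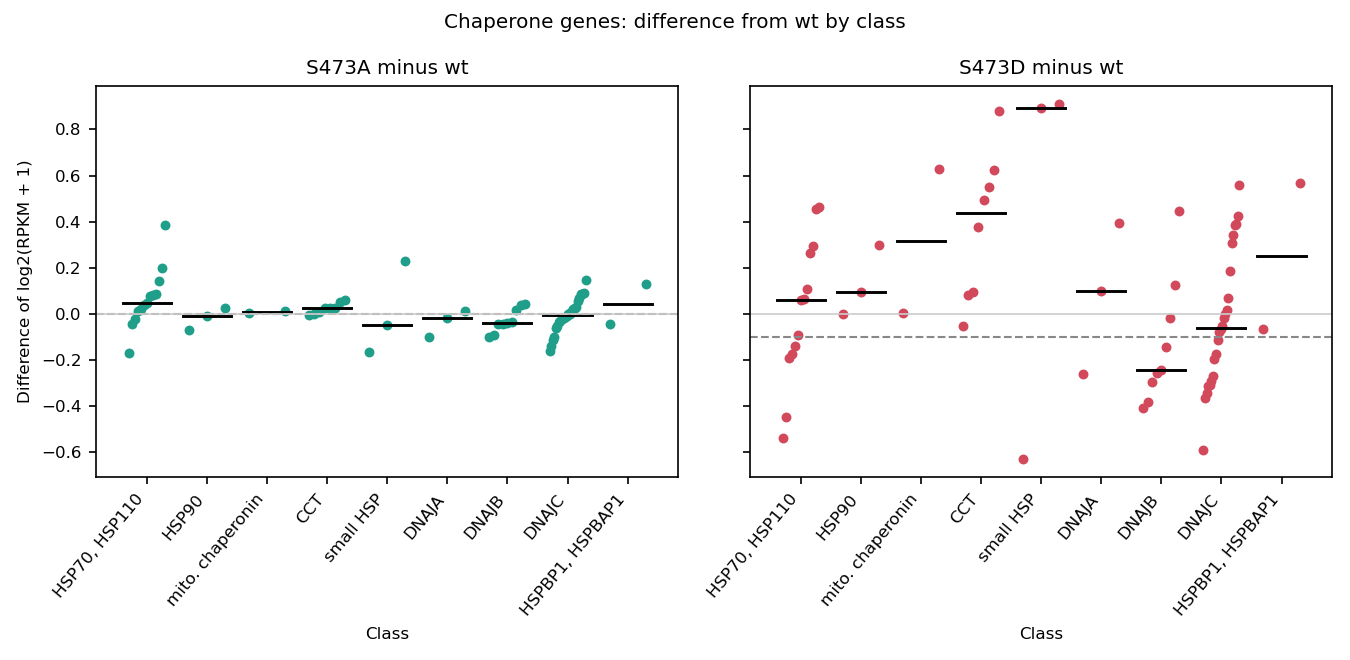
Difference from wt on the log2(RPKM + 1) scale for 67 chaperone genes by class, S473A on the left and S473D on the right. Each point is a gene, black bars are class medians, the dashed line is the median of all genes and the grey line is 0. Points lie close to 0 in S473A and spread from -0.63 to 0.91 in S473D. There CCT genes are mostly above 0 and DNAJB genes mostly below, where 39.3% of all genes are above 0.

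The HSP70 family is led by HSPA8, the constitutive cytosolic HSP70, which was also the most abundant member, at 938 (wt), 951 (S473A) and 1294 RPKM (S473D). Its S473D to wt ratio was 1.38 (interval 1.36 to 1.39), and the log2 difference, 0.46, was 0.41 once a smooth trend on transcript length was removed. RefSeq holds 20 pseudogenes under its name, with which reads can be shared. The stress-inducible HSP70 genes showed another pattern.

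HSPA1A and HSPA1B, the classic heat-induced pair on chromosome 6, differ in 4 of 1926 coding bases, so the split of reads between them is uncertain. HSPA1A was listed at 7.40 (wt), 9.98 (S473A) and 10.5 RPKM (S473D), and HSPA1B at 115, 127 and 108. Their sum stood at 122 (wt), 137 (S473A) and 118 RPKM (S473D), a log2 difference of 0.16 for S473A and -0.05 for S473D. The summed level was thus highest in S473A, while HSPA1A alone had the largest S473A difference of all members, at 0.39. HSPA6, a strictly inducible HSP70, stayed low in all libraries, at 1.55, 1.71 and 1.32 RPKM for wt, S473A and S473D, and its counting intervals against wt include 1. The testis-linked relative HSPA1L was under 1 RPKM throughout.

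HSPA5, the HSP70 of the endoplasmic reticulum known as BiP, stood lower in S473D. It was at 202 (wt), 196 (S473A) and 148 RPKM (S473D), 1.36-fold higher in wt (interval 1.34 to 1.39), and the log2 difference, -0.45, was -0.38 with the length trend removed. HSPA13, a microsomal HSP70 relative, went the other way, at 12.2, 12.3 and 14.8 RPKM in the same order, 1.22-fold higher in S473D (interval 1.13 to 1.32). Its difference of 0.27 was 0.04 once trends on length and GC content were both removed. HSPA9, the HSP70 of the mitochondrial matrix, was nearly level at 128, 131 and 133 RPKM.

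The remaining HSP70 relatives were less abundant. HSPA14, part of a complex at the ribosome, stood at 23.9 (wt), 24.7 (S473A) and 29.6 RPKM (S473D). HSPA12A, a distant family member, stood at 2.55, 3.08 and 1.45 RPKM, lowest in S473D and 1.76-fold higher in wt than there (interval 1.48 to 2.10). HSPA2, best known from the male germ line, was low at 2.26, 1.90 and 1.85 RPKM. Both of its intervals against wt include 1.

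The exchange factors of the HSP110 type differed little. HSPH1, which is heat inducible, stood at 88.7 (wt), 94.0 (S473A) and 78.5 RPKM (S473D), 1.13-fold higher in wt than in S473D (interval 1.101 to 1.16). HSPA4 was at 59.6, 62.9 and 62.5 RPKM and its relative HSPA4L at 8.997, 8.84 and 9.77. The median of the 13 measured HSP70 and HSP110 genes was 0.06 in S473D minus wt. Of these genes 7 were above 0 and 6 below, where 39.3% of all genes were above. None was 1.5-fold apart on the log2(RPKM + 1) scale, although HSPA12A was by the ratio of RPKM and with a pseudocount of 0.1 or 0.5. In S473A minus wt 10 were above 0, where 49.8% of all genes were, with a median of 0.05.

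Of the 3 HSP90 genes 1 stood apart in S473D. HSP90AA1, the inducible cytosolic form, stood at 716 (wt), 712 (S473A) and 882 RPKM (S473D), 1.23-fold higher in S473D than in wt (interval 1.22 to 1.24). HSP90AB1, the constitutive cytosolic form, was at 514, 523 and 549 RPKM. HSP90B1, the form of the endoplasmic reticulum known as GRP94, was at 368, 350 and 368, level between S473D and wt and slightly lower in S473A. Differences from wt in S473D were 0.30, 0.09 and 0.00. The pseudogene HSP90B2P, which was left out, carries values of 63.6, 65.5 and 61.8 RPKM, so part of the reads of HSP90B1 may have been counted there or the reverse.

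**Figure D2:**
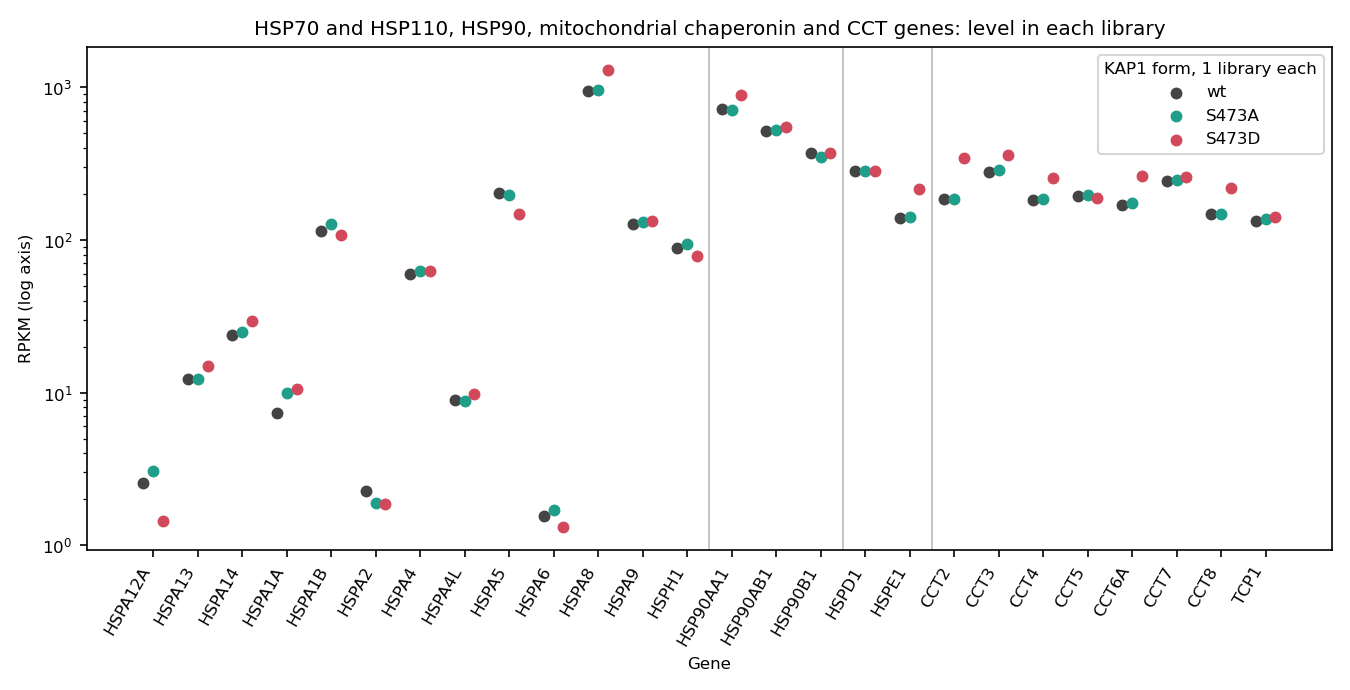
RPKM (log axis) of the measured HSP70, HSP110, HSP90, mitochondrial chaperonin and CCT genes in the wt, S473A and S473D libraries, 1 point per library, with grey lines between classes. HSPA8 and HSP90AA1 are the most abundant. The S473D point stands apart upward for CCT2 (341 RPKM against 185 in wt). It stands apart downward for HSPA12A (1.45 against 2.55) and HSPA5 (148 against 202).

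The mitochondrial chaperonin genes parted. HSPD1, the barrel subunit HSP60, stood at 280 (wt), 281 (S473A) and 281 RPKM (S473D). HSPE1, the lid subunit HSP10, stood at 139, 141 and 216, 1.55-fold higher in S473D than in wt (interval 1.48 to 1.62). For these neighbours with opposed promoters the S473D difference from wt was thus 0.63 for HSPE1 and 0.01 for HSPD1, and the S473A difference 0.01 and 0.00. The transcripts differ in length, 950 bases for HSPE1 and 2455 for HSPD1, and with the length trend removed the S473D differences were 0.17 and -0.05. RefSeq holds 28 pseudogenes named for HSPE1 and 22 for HSPD1. The read-through transcript HSPE1-MOB4 was at 2.07, 2.29 and 2.64 RPKM.

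CCT is a ring of 8 different subunits, each from its own gene and present in equal number in the complex. In wt the subunit genes lay between 133 RPKM (TCP1, the alpha subunit) and 276 (CCT3), and their levels in S473A were within 1.04-fold of wt. In S473D their ratios to wt were graded, from 0.964 (CCT5) to 1.84 (CCT2). CCT2 stood at 185 (wt), 184 (S473A) and 341 RPKM (S473D), 1.84-fold higher in S473D than in wt (interval 1.80 to 1.89). CCT6A was at 168, 175 and 260 RPKM, 1.54-fold higher (interval 1.51 to 1.58). CCT8 was at 148, 148 and 217 RPKM, 1.47-fold higher (interval 1.43 to 1.51).

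Another 2 subunits were higher by less. CCT4 stood at 181 (wt), 184 (S473A) and 255 RPKM (S473D), and CCT3 at 276, 287 and 359. The other 3 stayed close to wt. CCT7 was at 243, 247 and 259 RPKM, TCP1 at 133, 136 and 141, and CCT5 at 194, 195 and 187. The subunits are ordered here by these same ratios, whose intervals hold counting error alone.

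Summed over the 8 genes the level was 1528 (wt), 1557 (S473A) and 2020 RPKM (S473D), 1.32-fold higher in S473D than in wt. Summed RPKM over 19049 lines, with low genes and short RNAs included, was also highest in S473D. The CCT share of that sum was 0.462% (wt), 0.471% (S473A) and 0.513% (S473D). For all chaperone genes that share was 1.84%, 1.85% and 1.82%. The class median was 0.44 on the log2 scale, with 7 of 8 above 0, where 39.3% of all genes were. Once differences were centred on the median of all genes 8 of 8 were above 0. With the length trend removed the class median was 0.34, and 6 of 8 were above 0, where 37.2% of all genes were. CCT7 then stood at -0.04. The transcripts used had 2031 bases for CCT7, 2499 for TCP1, 2189 for CCT2, 2719 for CCT6A and 3675 for CCT5. Whether length underlies the differences between subunits was not tested. For CCT5 other RefSeq transcripts are shorter, and with the median RefSeq length its adjusted difference was -0.16.

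Partners of CCT stood in the list of co-chaperones. Prefoldin hands unfolded actin and tubulin to CCT. Its subunit gene PFDN4 stood at 37.8 (wt), 37.1 (S473A) and 81.7 RPKM (S473D), 2.16-fold higher in S473D than in wt (interval 2.03 to 2.30). PFDN5 was at 98.3, 93.8 and 179 RPKM and VBP1, also a prefoldin subunit, at 40.6, 40.1 and 67.8. TXNDC9, a phosducin-like protein that binds CCT, was at 49.2, 52.0 and 111 RPKM, 2.26-fold higher (interval 2.14 to 2.38). As in CCT itself the subunits of prefoldin did not stand together, since PFDN2 was at 189, 195 and 210 RPKM and PFDN1 was 1.16-fold higher in wt (interval 1.09 to 1.23). With the length trend removed the S473D differences were 0.94 for TXNDC9, 0.82 for PFDN4, 0.52 for VBP1 and 0.35 for PFDN5. The same step took PFDN1 from -0.21 to -0.52, and turned PFDN2 from 0.15 to -0.43 and PFDN6 (71.8, 68.8 and 91.6 RPKM) from 0.35 to -0.21.

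**Figure D3:**
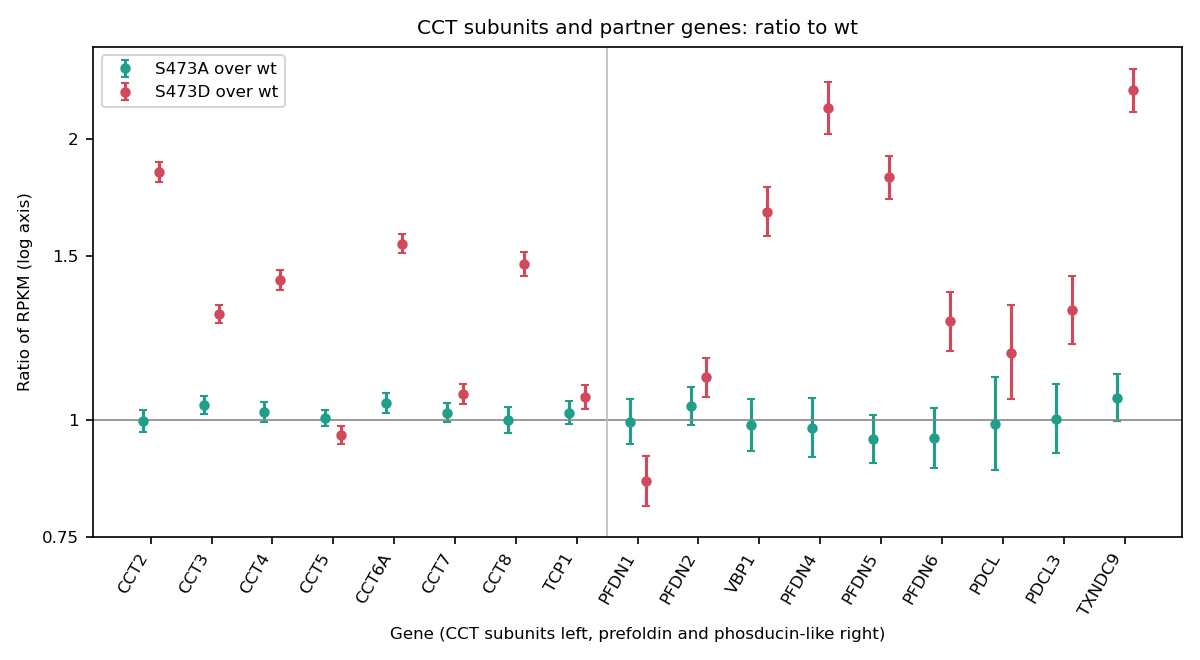
Ratio of RPKM to wt (log axis) for the 8 CCT subunit genes, left of the grey line, and for 9 prefoldin and phosducin-like genes. Points are ratios of 1 library to 1 library, and bars are 95% intervals for counting error only. S473A points lie near 1, while S473D points run from below 1 (CCT5, PFDN1) to 2.26 (TXNDC9).

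Small heat shock proteins hold aggregating proteins without ATP. Only 3 of the 5 symbols reached 1 RPKM, and they hold the highest and the lowest member differences. HSPB1, the small heat shock protein HSP27, was listed at 1.56 (wt), 1.47 (S473A) and 3.81 RPKM (S473D), 2.45-fold higher in S473D than in wt. That ratio rests on about 36 and 83 reads, with an interval of 1.66 to 3.77. On the log2(RPKM + 1) scale the difference was 0.91, and with a pseudocount of 0.1 or 0.5 RPKM, or after centring, it passed 2-fold. RefSeq holds 2 pseudogenes of HSPB1, with which reads can be shared.

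HSPB11 stood at 31.3 (wt), 27.8 (S473A) and 59.0 RPKM (S473D), 1.89-fold higher in S473D than in wt (interval 1.72 to 2.07). HSPB1 and HSPB11 have short transcripts of 0.909 and 0.915 kb, and with the length trend removed their differences were 0.43 and 0.42. HSPB8, which works with the exchange factor BAG3 in selective autophagy, was at 5.34 (wt), 6.44 (S473A) and 3.10 RPKM (S473D), 1.72-fold higher in wt than in S473D (interval 1.42 to 2.10). Its transcript is 2.15 kb long, and its difference of -0.63 became -0.74 with the length trend removed. HSPB8 was thus highest in S473A and lowest in S473D.

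J-domain proteins choose the clients and places of HSP70. In the DNAJA class DNAJA1, the abundant cytosolic form, stood at 161 (wt), 159 (S473A) and 173 RPKM (S473D). DNAJA2, its constitutive relative, was at 21.5, 21.7 and 28.6 RPKM, 1.33-fold higher in S473D than in wt (interval 1.25 to 1.42). DNAJA3, the mitochondrial form, was at 32.2, 29.99 and 26.7 RPKM, 1.205-fold higher in wt (interval 1.13 to 1.28). The 3 genes thus differed in direction, and DNAJA4 was under 1 RPKM in every library.

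DNAJB genes stood mostly lower in S473D, 7 of 9 below 0 with a median of -0.24, against -0.10 for all genes, and 6 of 9 below 0 once differences were centred. None of the 9 was 1.5-fold apart. DNAJB1, the heat-inducible HSP40, was at 87.5 (wt), 90.1 (S473A) and 73.8 RPKM (S473D). DNAJB6, which keeps polyglutamine proteins from aggregating, was at 56.4, 57.2 and 47.1. DNAJB11, the partner of BiP in the endoplasmic reticulum, was at 74.2, 72.3 and 60.3 RPKM, 1.23-fold higher in wt than in S473D (interval 1.17 to 1.30), although its transcript of 1.69 kb is short, and its difference of -0.29 became -0.50 with the length trend removed.

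DNAJB12, anchored in the membrane of the endoplasmic reticulum, stood at 12.2 (wt), 11.8 (S473A) and 9.14 RPKM (S473D), and DNAJB5 at 4.41, 4.24 and 3.08. The 2 above 0 were DNAJB4 (6.95, 6.43 and 9.83 RPKM, 1.41-fold higher in S473D than in wt) and DNAJB14 (6.77, 6.98 and 7.47). With trends on length and GC content removed DNAJB4 went from 0.45 to 0.11 and DNAJB14 from 0.12 to -0.08. DNAJB9, which the unfolded protein response induces, was level at 7.10, 6.60 and 7.01 RPKM, and DNAJB2 was at 9.78, 9.47 and 8.78.

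DNAJC is the largest and most mixed class, joined by the J domain alone. Of its 24 measured genes 10 were above 0 and 14 below in S473D minus wt, where 39.3% of all genes were above. Their median of -0.06 lay at 0.04 after centring. DNAJC11, a protein of the mitochondrial membranes that binds the complex shaping the cristae, was the lowest, at 23.1 (wt), 22.6 (S473A) and 15.0 RPKM (S473D), 1.54-fold higher in wt than in S473D (interval 1.43 to 1.65). DNAJC5, the synaptic vesicle protein CSP alpha, was at 42.7, 44.5 and 33.0 RPKM. DNAJC14 was at 22.1, 22.3 and 17.7, and the lower genes DNAJC16 and DNAJC27 had differences of -0.34 and -0.31.

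At the upper end DNAJC17, a nuclear protein linked to splicing, stood at 6.03 (wt), 5.75 (S473A) and 9.37 RPKM (S473D), 1.55-fold higher in S473D than in wt (interval 1.39 to 1.73). Its transcript is 3.73 kb long, and with the length trend removed its difference went from 0.56 to 0.61. DNAJC15 and DNAJC19, both of the motor that pulls proteins into the mitochondrial matrix, were at 10.8, 9.88 and 14.8 RPKM and at 15.4, 15.2 and 20.5. DNAJC19 went from 0.39 to 0.12 with the length trend removed and to -0.06 with the length and GC trends removed, so its direction depends on that setting. DNAJC9, a chaperone of histones H3 and H4, was at 67.1, 68.3 and 88.2 RPKM, 1.31-fold higher in S473D than in wt (interval 1.27 to 1.36), and DNAJC8, a spliceosome protein, at 50.6, 50.04 and 64.5. The 3 genes DNAJC9, DNAJC15 and DNAJC17 kept differences of at least 0.36 under all length and GC settings.

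The 2 proteins named for binding other members differed from each other. HSPBAP1, which binds HSPB1, was at 4.58 (wt), 5.10 (S473A) and 7.27 RPKM (S473D), 1.59-fold higher in S473D than in wt (interval 1.34 to 1.89). HSPBP1, an exchange factor of HSP70, was at 21.8, 21.2 and 20.8 RPKM. The 10 members under 1 RPKM were HSPA1L, HSPA12B, HSPB6, HSPB9, DNAJA4, DNAJB7, DNAJB13, DNAJC5G, DNAJC12 and DNAJC28, of which HSPA1L in wt had the highest level, 0.785 RPKM. HSPB9 was listed at 0 in S473A, and the read-through HSPB2-C11orf52 in all 3 libraries. The read-through DNAJC25-GNG10 was at 0.354, 0.479 and 0.700 RPKM. The antisense transcripts DNAJC9-AS1 and DNAJC27-AS1 stayed between 0.138 and 0.305 RPKM. Whether counting used strand is not given in the labels, so reads where they overlap DNAJC9 and DNAJC27 are uncertain.

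By compartment, 10 genes were listed for the endoplasmic reticulum, a list that leaves out the membrane protein DNAJB12 (-0.38). Their median in S473D minus wt was -0.01, against -0.10 for all genes. Of them 5 were above and 5 below 0, where 39.3% of all genes were above. With the length trend removed the median was -0.08 with 3 above 0, against -0.10 and 37.2% above 0 for all genes. The 10 listed genes included HSPA5 (-0.45), DNAJC16 (-0.34), DNAJB11 (-0.29) and DNAJC3 (-0.27), which encodes an inhibitor of the kinase PERK. HSPA13 (0.27), the highest of the list, DNAJC25 (0.19) and DNAJC10 (0.07), a reductase that helps clear misfolded proteins, stood above 0. In S473A minus wt 8 of these 10 were below 0, where 49.8% of all genes were above, but the median was only -0.04 and DNAJC1 had the largest difference, -0.16. The 9 measured genes of the mitochondrial list, which adds the J-domain protein HSCB, had a median of 0.01 in S473D minus wt. They ran from -0.59 (DNAJC11) to 0.63 (HSPE1). With the length trend removed that median was -0.05, with 4 above 0, against -0.10 and 37.2% above 0 for all genes.

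Of 17 measured textbook targets of heat shock factor 1, 18 being listed and not all of them members, 10 were above 0 in S473D minus wt with a median of 0.09. The median was -0.05 with 8 above 0 once the length trend was removed. For all genes the median was -0.10 with 39.3% above 0 before that step, and -0.10 with 37.2% above 0 after it. HSF1 itself stood at 69.9 (wt), 71.3 (S473A) and 56.7 RPKM (S473D), and HSF2 at 11.9, 11.2 and 12.5. Of the list of 45 co-chaperones and regulators 43 were measured, 22 above and 21 below 0, 6 at least 1.5-fold higher and 1 lower, and their median was 0.04. Over all genes 39.3% were above 0, 6.82% were 1.5-fold higher and 3.23% lower. With the length trend removed the median of the 43 was -0.05, with 19 above 0, against -0.10 and 37.2% for all genes. The lowest was STIP1, the adaptor that passes clients from HSP70 to HSP90, at 205 (wt), 209 (S473A) and 132 RPKM (S473D), 1.55-fold higher in wt than in S473D (interval 1.51 to 1.59). HYOU1, an exchange factor of BiP, was at 72.6, 70.9 and 49.6 RPKM, NUDC at 122, 123 and 91.2, and the secreted chaperone CLU at 3.26, 3.52 and 1.94.

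Differences between S473D and wt moved with transcript length over the whole table. Genes with transcripts under 1 kb had a median of 0.45 and those of at least 5 kb -0.26, and Spearman's rho between length and difference was -0.44 across 10787 genes and -0.33 across the 67 chaperone genes. These are descriptions across genes of the same 2 libraries. For GC content rho was -0.26 and -0.24. In S473A minus wt rho with length was -0.01 and 0.03. The median member transcript was 2.76 kb long, against 3.24 kb over all genes, and 3 of 67 members were under 1 kb (HSPB1, HSPB11 and HSPE1). With the length trend removed 4 members were 1.5-fold apart, CCT2 (0.78), DNAJC17 (0.61), CCT6A (0.60) and HSPB8 (-0.74). The share of all genes at 1.5-fold after that step was not counted, so these 4 cannot be set against a background.

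**Figure D4:**
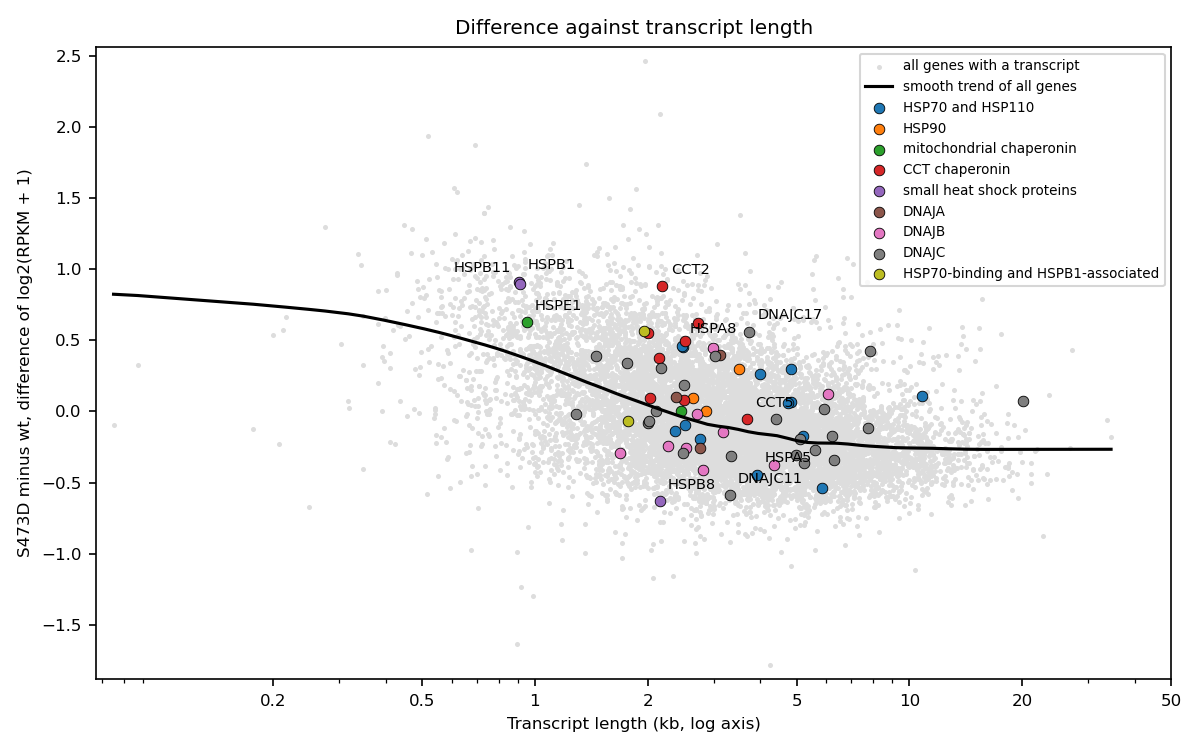
S473D minus wt on the log2(RPKM + 1) scale against transcript length (kb, log axis) for all genes with a matched transcript (grey), with their smooth trend (black line) and the 67 chaperone genes colored by class. HSPB1, HSPB11 and HSPE1 lie among short transcripts where the trend is above 0, while CCT2 and HSPB8 lie far above and below the trend near 2.2 kb.

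Between S473A and wt the chaperone genes differed little. The 3 highest were HSPA1A (0.39), HSPB8 (0.23) and HSPA12A (0.20), and the 3 lowest HSPA2 (-0.17), HSPB11 (-0.16) and DNAJC1 (-0.16). HSPB8 was 1.205-fold higher in S473A than in wt (interval 1.03 to 1.402) and HSPA12A 1.21-fold (interval 1.06 to 1.38). The counting interval of the ratio left out 1 for 21 of 67 members, 14 higher and 7 lower in S473A, where 7.6% and 7.92% of all genes with a transcript did so. For S473D against wt it left out 1 for 32 higher and 23 lower members, against 26.8% and 45.5%. Such intervals compare 2 libraries, not conditions, and are narrowest for abundant genes such as these.

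Between S473D and S473A 1 member, HSPB11, was at least 2-fold apart on the log2(RPKM + 1) scale, at 59.0 against 27.8 RPKM (a difference of 1.06), where 1.13% of all genes were. At 1.5-fold 5 members were higher in S473D (HSPB11, HSPB1, CCT2, DNAJC17 and HSPE1) and 2 lower (HSPB8 and HSPA12A), 10.4% in all against 9.85% of all genes, of which 6.86% were higher and 3% lower. With the length trend removed HSPB11 went to 0.57, HSPB1 from 0.96 to 0.47 and HSPE1 from 0.61 to 0.15, all under 1.5-fold. After that step CCT2 stood at 0.78, DNAJC17 at 0.66, HSPA12A at -0.61 and HSPB8 at -0.97. The share of all genes at 1.5-fold after it was not counted. Unadjusted, HSPB8 (-0.86) and HSPA12A (-0.74) were further apart here than in either comparison with wt, which shares its libraries with this one. The median over members was 0.02, against -0.10 for all genes.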

How the data were processed

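Values deposited by the authors are log2 of RPKM + 0.1, the unit being in the name they gave it and the offset read from the lowest value of each column (-3.32). Bowtie, Partek and build hg19 are named in the submitters' processing notes, with no versions, and the annotation and counting rule were not given in the sources used here. Titles gave the groups. RPKM were recovered by undoing the log. Of 19076 lines 27 were left out for symbols turned into dates (4 of them repeated), then genes under a mean of 1 RPKM and 169 short RNAs, which left 11579. Differences were taken with a pseudocount of 1 RPKM, and genes were counted at 2-fold and, a choice made after the data were seen, at 1.5-fold. Members and gene lists were chosen with earlier results of these data known. The rule for naming genes takes each measured HSP70, HSP110, HSP90, chaperonin and CCT gene, up to 5 highest and 5 lowest of the other classes, and up to 4 each of the co-chaperones by S473D minus wt. It adds 3 highest and 3 lowest members by S473A minus wt, and other members may be named. Depth came from steps between 3028 low genes (between 44.6% and 46.0% of low values whole within 2%), so read numbers are approximate and count models were not used. Lengths and GC content are of the longest GENCODE release 29 transcript with a RefSeq record, which may not be the authors' gene models, and trends were lowess fits (fraction 0.2, statsmodels 0.14.6). Pseudogenes were left out by RefSeq and GENCODE gene types. The steps were tested on simulated data.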

Additional observations from a re-analysis of the deposited data

How the results depend on the processing

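Alternatives were a pseudocount of 0.1 or 0.5 RPKM, no filter or a mean of at least 5 RPKM, centring on the median, trimmed means of log ratios, and removal of a trend on length. A trend on length and GC content, 1 on median transcript length, and the 1.5-fold count were added after the data were seen. For S473D minus wt the number of members 2-fold apart went from 0 to 1 with a pseudocount of 0.1 or 0.5 and with centring. It went to 2 with trimmed means. Over all genes those 2-fold higher and 2-fold lower went from 115 and 11 to 159 and 46 with a pseudocount of 0.1. They were 136 and 25 with a pseudocount of 0.5, 197 and 8 with centring, and 209 and 8 with trimmed means. They were 28 and 36 with the length trend removed. The share of all genes at 1.5-fold was not counted under the alternatives. The number of members 1.5-fold apart went from 7 to 10 with a pseudocount of 0.1 or 0.5, and to 9 with centring or trimmed means. It fell to 5 at a mean of at least 5 RPKM or with the median-length trend removed. With the length trend or the length and GC trends removed it was 4. The median of 0.01 became 0.0819 at a mean of at least 5 RPKM, 0.11 with centring and 0.11 with trimmed means, 0.0273 with the length trend, -0.0536 with the length and GC trends and 0.0248 with the median-length trend removed. For S473D minus S473A the number of members 2-fold apart went from 1 to 4 with a pseudocount of 0.1. It was 2 with a pseudocount of 0.5, centring or trimmed means, and 0 with any of the 3 trends removed. Over all genes those 2-fold higher and 2-fold lower went from 116 and 15 to 164 and 54 with a pseudocount of 0.1. They were 136 and 28 with a pseudocount of 0.5, 211 and 8 with centring, and 220 and 9 with trimmed means. They were 27 and 43 with the length trend removed. The number of members 1.5-fold apart went from 7 to 4 at a mean of at least 5 RPKM and 11 with centring or trimmed means. The median of 0.02 became 0.00309 with no filter, 0.0729 at a mean of at least 5 RPKM, 0.12 with centring, 0.13 with trimmed means and -0.0471 with the length and GC trends removed. The cause was not tested. For S473A minus wt 0 members were 1.5-fold apart under each of these alternatives, and the median of 0.00766 ran from -4.97e-05 with no filter to 0.0153 with the length and GC trends removed. In S473D minus wt 8 of 67 members took the other sign with centring, 6 with the length trend and 9 with the length and GC trends removed. No paired analysis was possible because each group has 1 library, and for that reason no library could be left out. Estimated depth limits genes near 1 RPKM most, such as HSPB1 with about 36 reads in wt.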
